A study of Mus musculus with 12 samples.

Results

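The antioxidant enzymes described here are the products of 10 mouse genes, chosen by name and found by symbol among the 53715 genes of a raw count table: Sod1, Sod2, Cat, Gpx1, Gpx4, Prdx1, Prdx2, Prdx4, Txnrd1 and Hmox1. The rule that picks them uses names and no measured value. Their transcripts were measured by RNA sequencing in spermatogonia, the mitotic male germ cells that renew themselves and give rise to spermatocytes. Cells were taken from mouse testes of a C57BL6/129 background, 1000 sorted cells per library, and amplified by the Smart-seq2 method. The labels give 4 groups of 3 libraries: Tet1KO mice at 3 months, WT mice at 3 months, Tet1KO mice at 11 months and WT mice at 11 months. Tet1 encodes a dioxygenase that oxidises methylated cytosine in DNA. How the Tet1KO allele was made, in which cells Tet1 was lost, which markers guided the sort and whether replicates are different mice is not given in the labels. The p-values therefore measure the spread between these libraries.

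Antioxidant enzymes remove the reactive oxygen species that respiration and oxidases produce. Superoxide dismutases turn superoxide into hydrogen peroxide, which catalase, glutathione peroxidases and peroxiredoxins then break down, with reducing power passed on by glutathione and by thioredoxin and its reductase. Haem oxygenase acts beside them by degrading free haem, and many genes of the system are known targets of the transcription factor NRF2, which binds the antioxidant response element in DNA. In the testis this system is best known from Gpx4, which is needed for sperm structure and male fertility, and from Prdx4, whose loss in mice leads to testicular atrophy.

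Total counts were 9623251 to 18223645 in Tet1KO libraries and 8325159 to 13622729 in WT libraries at 3 months, and 8599667 to 16323020 in Tet1KO libraries and 9572429 to 16248463 in WT libraries at 11 months. The limit that 3 counts set was between 0.165 and 0.360 CPM (counts scaled to the library total), and covers counting error only. Tet1 itself had 1 to 18 counts in the 6 Tet1KO libraries and 0 to 16 counts in the 6 WT libraries, so the gene-level count did not check the genotype labels. The germ cell markers had a summed level of 2497 to 3297 CPM, and erythroid markers 0 to 1.88 CPM, with Hbb-bs and Hbb-bt at 0 in all 12 libraries. Undifferentiated spermatogonia markers summed to 442.5 to 643.8 CPM and differentiating ones to 685.8 to 1660 CPM. Sums were 1702 to 4957 CPM for meiotic spermatocyte, 302.6 to 2993 CPM for spermatid, 372.5 to 908.2 CPM for Sertoli and 99.67 to 1177 CPM for leukocyte and macrophage markers. The lists hold different genes, so their sums do not give shares of cells. WT replicate 1 and Tet1KO replicate 2 at 3 months stood apart on the first principal component, which held 39% of the variance. The library codes begin with AK in all but WT replicate 2 and Tet1KO replicate 1 at 3 months, and the labels do not say what the prefix marks.

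The antioxidant response element core, TGACNNNGC on either strand, was searched in the promoter windows that RefSeq gives for the GRCm38.p6 build, from 250 bases before to 50 bases after each gene's start. Of 32851 windows of all genes, 12.4% held it. Windows were found for 9 of the 10 members, all but Hmox1, whose promoter was therefore not searched. There were 14 windows among them, and 3 of these windows held the core, those of Sod1, Prdx1 and Txnrd1. The 3 stretches are shown because they are the places where the members share this sequence feature, with the matched letters, here in the reverse orientation GCNNNGTCA, in capitals. A match is a run of letters and no measurement of binding.
Sod1, chr16:90220680-90220739, plus strand: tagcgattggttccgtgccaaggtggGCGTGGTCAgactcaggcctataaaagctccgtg
Prdx1, chr4:116685440-116685499, plus strand: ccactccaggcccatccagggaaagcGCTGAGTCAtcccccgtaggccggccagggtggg
Txnrd1, chr10:82859088-82859147, plus strand: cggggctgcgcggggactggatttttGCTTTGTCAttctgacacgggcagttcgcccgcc
The first matched base lay at −56 from the start of Sod1, at −133 from that of Prdx1 and at −92 from the start in the second window of Txnrd1. The number of CG dinucleotides, the bases that TET enzymes act on when methylated, was 34 in the Sod1 window, against a median of 7 over all windows. It was 3 in the first window of Gpx4, whose other windows held 31, 26 and 29, and 3 in the first window of Txnrd1. Every other window of the members held 11 or more. The members' windows lay between the 23.3 and the 92.3 percentile of CG content over all windows.

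Transcripts of all 10 enzymes were detected in every library, at levels that differed widely between the enzymes. On the TPM scale, which divides counts by gene length so that genes can be compared, the levels over the 12 libraries (mean ± SD) placed the cytosolic dismutase Sod1 first at 3021 ± 614 TPM and the peroxiredoxin Prdx1 next at 1558 ± 168 TPM. Their ranges overlapped, and Sod1 was above Prdx1 in 11 of 12 libraries. Prdx4, the peroxiredoxin of the endoplasmic reticulum, followed at 664 ± 115 TPM, and Gpx4, which reduces lipid hydroperoxides in membranes, at 292 ± 68.7 TPM. These 4 stood above 97.3% or more of the 19815 genes tested. The mitochondrial dismutase Sod2 had 154 ± 18.7 TPM and the cytosolic glutathione peroxidase Gpx1 110 ± 21.1 TPM, a pair whose ranges overlapped. Below them came Prdx2 at 57.1 ± 5.57 TPM, Cat at 42.8 ± 10.1 TPM and Hmox1 at 25.6 ± 10.2 TPM, with Cat overlapping both of its neighbours. Txnrd1, the cytosolic thioredoxin reductase, was lowest at 4.05 ± 1.16 TPM, above only 40.7% of the genes tested. Sod1, Prdx1 and Prdx4 together held 84.7% to 90.3% of the members' summed TPM. Of the 9 pairs of neighbours in this order, 5 did not overlap in range, and with the length of the longest protein-coding transcript in place of the merged exons, 3 did not and Sod2 dropped below Gpx1 and Prdx2.

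Within the families, the members held the top places among the dismutases and glutathione peroxidases but not among the reductases and haem oxygenases. The extracellular dismutase Sod3 had 1.06 TPM on average, and the next glutathione peroxidase after Gpx4 and Gpx1 was Gpx7 at 8.04 TPM. Gpx5 had 0 counts in all 12 libraries. Among peroxiredoxins the mitochondrial and peroxisomal Prdx5, at 205 TPM, lay between Prdx4 and Prdx2, whereas Prdx3 and Prdx6 had 49.1 and 27.9 TPM. Txnrd1 was the lowest of the 3 thioredoxin reductases, below the testis-rich Txnrd3 at 32.1 TPM and the mitochondrial Txnrd2 at 7.48 TPM. The inducible haem oxygenase Hmox1 lay below the constitutive Hmox2, which had 237 TPM.

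**Figure D1:**
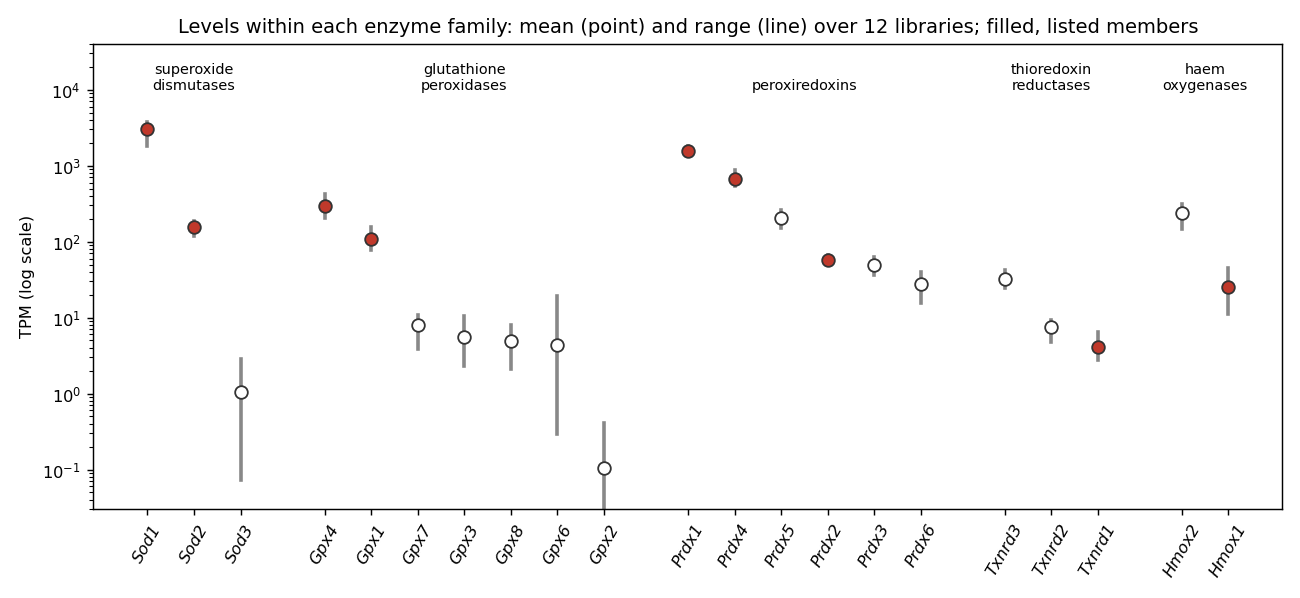
Level of each gene of the 5 enzyme families in TPM on a log axis, with the mean over 12 libraries as a point and the range as a line; filled points are the listed antioxidant enzymes, and Gpx5, at 0 throughout, is left out, while the lower end of the Gpx2 line is at 0. Sod1 leads the dismutases at 3021 TPM and Txnrd1 is the lowest reductase at 4.05 TPM.

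None of the 10 enzymes differed between Tet1KO and WT spermatogonia or between the ages by the test used, edgeR's quasi-likelihood test with Benjamini-Hochberg adjustment over all 19815 genes at 0.05. This held in 6 comparisons: Tet1KO against WT at each age and averaged over both, 11 against 3 months in each genotype, and the difference of the Tet1KO effect between the ages. The test called 0 of all genes tested in each (0%), so 0 called members was also the background. At an unadjusted p under 0.05 the share of all genes was 1.14% for Tet1KO against WT at 3 months, 1.65% at 11 months and 1.43% averaged. It was 5.67% for 11 against 3 months in WT, 2.33% in Tet1KO and 1.57% for the difference. In this fit, which did not use the replicate numbers, 0 of 10 members were under it in any of these comparisons. DESeq2 and limma-voom, run as alternatives, called no member either. A p above the threshold does not show that levels were alike, and the intervals give what the data allow.

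For 9 of the 10 enzymes, all but Hmox1, the 95% interval of the log2 fold change lay between −1 and 1, that is within a 2-fold change, in every comparison. Over these 9 the bounds ran from −0.76 to 0.54 for Tet1KO against WT at 3 months and from −0.78 to 0.61 at 11 months. For 11 against 3 months they ran from −0.65 to 0.67 in WT and from −0.63 to 0.63 in Tet1KO. The bounds for the difference of the Tet1KO effect reached from −0.94 to 0.91. The median log2 fold change of the 10 members was −0.05 at 3 months and −0.11 at 11 months for Tet1KO against WT, beside −0.02 and 0.02 over all genes tested. For 11 against 3 months it was 0.02 in WT and 0.01 in Tet1KO, beside −0.06 and −0.01 over all genes. In bulk libraries, fewer cells of a type and less RNA per cell cannot be told apart.

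**Figure D2:**
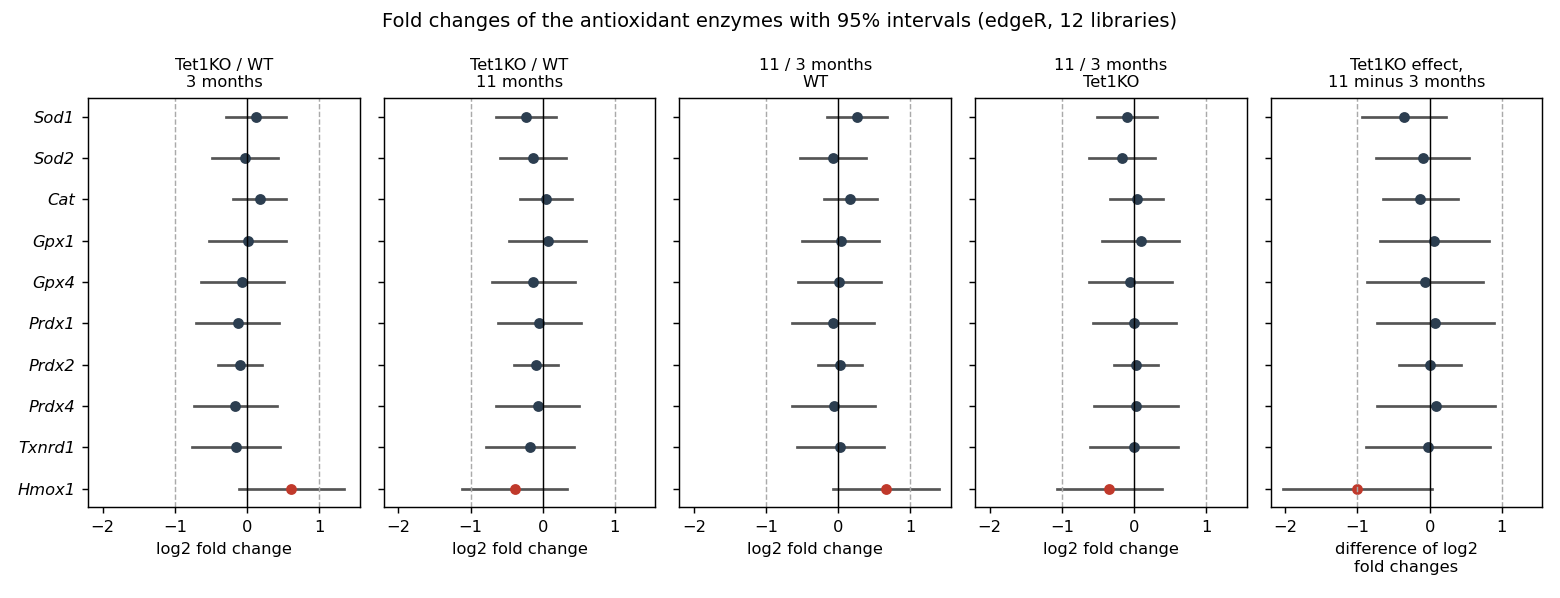
Log2 fold change of each enzyme in 5 comparisons (points) with its 95% interval (lines), from the edgeR model of all 12 libraries; dashed lines mark −1 and 1, and the last panel shows the difference of the Tet1KO effect, 11 minus 3 months. Every interval spans 0, and only the Hmox1 interval, in red, crosses a dashed line.

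Among the dismutases, Sod1, which works with copper and zinc (chromosome 16, 90220742 to 90226322, plus strand, mm10), had 1065, 934 and 1120 CPM in Tet1KO libraries and 942, 1076 and 850 CPM in WT libraries at 3 months. At 11 months it had 1181, 1015 and 721 CPM in Tet1KO libraries and 1152, 1137 and 1145 CPM in WT libraries. The 3 WT libraries at 11 months lay from 1137 to 1152 CPM, above all 3 WT libraries at 3 months, while the Tet1KO libraries at 11 months held both the highest and the lowest Sod1 level of all 12. The log2 fold change for 11 against 3 months in WT was 0.26 ± 0.19 (SE, adjusted p = 0.804, edgeR), and for Tet1KO against WT at 11 months −0.23 ± 0.19 (adjusted p = 1). On the TPM scale the WT ages overlapped, with 3083 to 3809 TPM at 11 months and 2103 to 3266 TPM at 3 months. On the CPM scale, 4 comparisons were of groups that share an age or a genotype. Sod1 in WT at 11 against 3 months was the only one in which 2 groups did not overlap for a member. This was 1 of 10, where 5.44% of all genes lay higher and 6.09% lower without overlap in the same comparison. For Tet1KO against WT, 0 of 10 members lay apart in either direction, where 3.32% of all genes lay higher and 3.62% lower at 3 months and 2.83% higher and 2.54% lower at 11 months. For 11 against 3 months in Tet1KO it was also 0 of 10 members, beside 3.11% of all genes higher and 3.08% lower.

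Sod2, the manganese dismutase of mitochondria (chromosome 17, 13007839 to 13018119), had 307, 321 and 349 CPM in Tet1KO libraries and 338, 288 and 372 CPM in WT libraries at 3 months. The 11-month libraries had 373, 198 and 300 CPM in Tet1KO libraries and 332, 276 and 343 CPM in WT libraries. The Tet1KO range at 11 months enclosed that of the WT libraries, and Tet1KO replicate 2 was the lowest library of all. The log2 fold changes for Tet1KO against WT were −0.03 ± 0.21 at 3 months and −0.13 ± 0.21 at 11 months (SE).

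Cat, the catalase of peroxisomes, which splits hydrogen peroxide into water and oxygen (chromosome 2, 103453849 to 103485160), had 69.0, 52.8 and 58.6 CPM in Tet1KO libraries and 49.2, 61.0 and 49.6 CPM in WT libraries at 3 months. At 11 months the Tet1KO libraries had 61.1, 74.0 and 49.95 CPM and the WT libraries 59.8, 63.6 and 56.0 CPM. Levels varied little, by 1.51-fold between the highest and lowest of the 12 libraries, and the groups overlapped at both ages. The log2 fold change for Tet1KO against WT was 0.17 ± 0.17 at 3 months and 0.04 ± 0.17 at 11 months (SE).

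The selenoproteins of the list are Gpx1, Gpx4 and Txnrd1, which carry selenocysteine. Gpx1 (chromosome 9, 108338903 to 108340343) had 80.6, 96.4 and 71.4 CPM in Tet1KO libraries and 96.0, 73.1 and 77.8 CPM in WT libraries at 3 months. In the 11-month libraries Gpx1 stood at 57.5, 97.4 and 111 CPM in Tet1KO libraries and 82.6, 65.6 and 105 CPM in WT libraries. The group means were within 1 SD of each other at both ages, 82.8 ± 12.7 CPM in Tet1KO and 82.3 ± 12.1 CPM in WT at 3 months and 88.5 ± 27.7 CPM in Tet1KO and 84.3 ± 19.6 CPM in WT at 11 months (SD, n = 3 each).

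Gpx4 (chromosome 10, 80047166 to 80056439) had 205, 389 and 193 CPM in Tet1KO libraries and 348, 241 and 234 CPM in WT libraries at 3 months. The 11-month values were 265, 277 and 218 CPM in Tet1KO libraries and 264, 254 and 315 CPM in WT libraries. The highest values of all 12 libraries, 389 and 348 CPM, came from the pair of 3-month libraries that stood apart on the first principal component. Their summed spermatid markers were 1505 CPM in Tet1KO replicate 2 and 2993 CPM in WT replicate 1. At 11 months, replicate 1 of Tet1KO and replicate 1 of WT had spermatid sums of 2473 and 2689 CPM with Gpx4 at 265 and 264 CPM. In each of the 4 groups Gpx4 was highest in the library with the lowest summed differentiating spermatogonia markers. That was singled out after the values were seen, and 5 of 110 pairs of a marker list and a member had this pattern. The part of these lists in the Gpx4 levels was not tested. The log2 fold change for Tet1KO against WT at 3 months was −0.06 ± 0.26 (SE), −0.47 without Tet1KO replicate 2 and 0.14 without WT replicate 1, and no adjusted p passed in any of these. Reads of Gpx4 can also match a near-identical copy, Gpx4-ps2 (chromosome 10, 45875291 to 45876086), whose count was 16.8% to 20.3% of the Gpx4 count in each library. With its reads added the log2 fold change at 3 months was −0.06.

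Txnrd1 (chromosome 10, 82833951 to 82897712) had 11.4, 15.9 and 15.5 CPM in Tet1KO libraries and 20.0, 13.5 and 13.8 CPM in WT libraries at 3 months. At 11 months the values were 10.1, 20.1 and 12.7 CPM in Tet1KO libraries and 14.7, 18.8 and 14.9 CPM in WT libraries. The groups overlapped at both ages, and the Tet1KO libraries at 11 months held both the highest and the lowest value. The log2 fold change for Tet1KO against WT was −0.15 ± 0.28 at 3 months and −0.17 ± 0.28 at 11 months (SE).

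Peroxiredoxins reduce peroxides through a reactive cysteine. Prdx1, the abundant cytosolic form (chromosome 4, 116685544 to 116700822), had 2605, 2291 and 2530 CPM in Tet1KO libraries and 2342, 2436 and 3338 CPM in WT libraries at 3 months. At 11 months it had 2241, 1787 and 3432 CPM in Tet1KO libraries and 2677, 1980 and 3057 CPM in WT libraries. The Tet1KO libraries at 11 months spanned the whole range of the 12 libraries, a 1.92-fold spread inside 1 group, and log2 fold changes for Tet1KO against WT were −0.13 ± 0.26 at 3 months and −0.05 ± 0.26 at 11 months (SE).

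Prdx2, also cytosolic (chromosome 8, 84969587 to 84974834), was the steadiest of the 10, with 88.1, 101 and 77.5 CPM in Tet1KO libraries and 95.2, 92.7 and 98.1 CPM in WT libraries at 3 months. The 11-month values were 79.6, 85.3 and 107 CPM in Tet1KO libraries and 100.4, 94.2 and 95.3 CPM in WT libraries. Its within-group SD on the log2 CPM scale was 0.15, the lowest of the members, where the median of the 9998 genes with a mean log2 CPM of 3 or more was 0.27. Its count is uncertain, since 177 bases of its exons are shared with Rnaseh2a and 173 with Junb, both on the other strand, and the counting did not use strand. Rnaseh2a had 13828 counts over the 12 libraries beside 13952 for Prdx2.

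Prdx4 (chromosome X, 155323918 to 155340754) had 692, 609 and 842 CPM in Tet1KO libraries and 705, 702 and 993 CPM in WT libraries at 3 months. At 11 months it had 957, 495 and 732 CPM in Tet1KO libraries and 952, 592 and 750 CPM in WT libraries. The Tet1KO and WT libraries overlapped at both ages, with log2 fold changes of −0.16 ± 0.26 at 3 months and −0.07 ± 0.26 at 11 months (SE). In each of the 4 groups the order of Prdx4 over the 3 libraries was the order of the summed meiotic spermatocyte markers, a list of 10 genes led by Sycp3. The lowest Prdx4 level, in Tet1KO replicate 2 at 11 months, went with the lowest meiotic sum, 1702 CPM, and the highest, in WT replicate 3 at 3 months, with the highest sum, 4957 CPM. Of 110 pairs of a marker list and a member, this was the only one with the same order in all 4 groups, and it was singled out after the values were seen. Prdx4 was also highest, in each of the 4 groups, where the differentiating spermatogonia sum was highest and where the undifferentiated sum was lowest. The part of these lists in the Prdx4 levels was not tested.

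**Figure D3:**
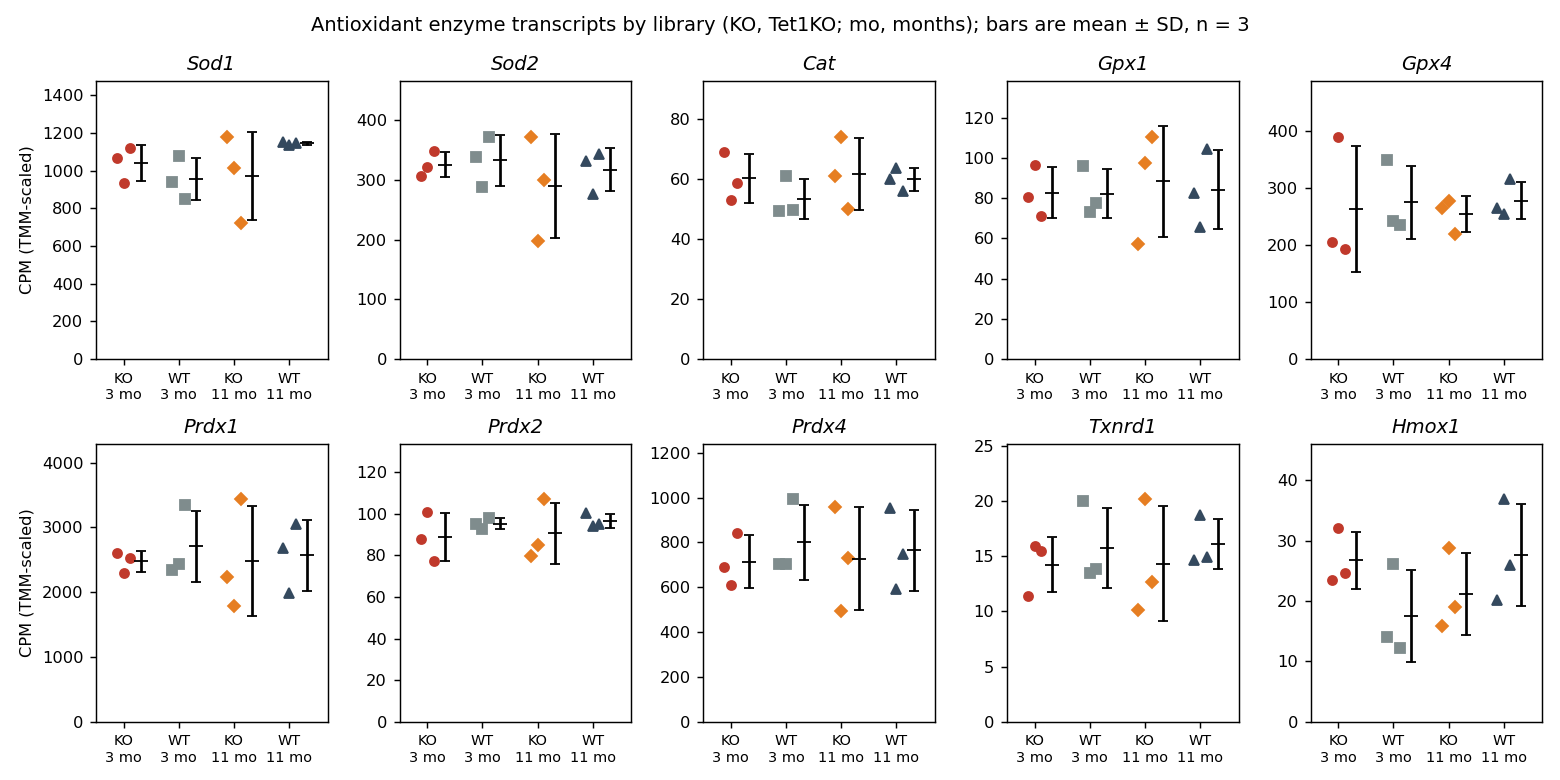
Level of each of the 10 enzymes in CPM per library, with Tet1KO left of WT at 3 and then at 11 months; each point is 1 library and the bars are the mean ± SD of 3. The groups overlap in every panel, apart from Sod1, where the 3 WT libraries at 11 months, 1137 to 1152 CPM, lie above the 3 WT libraries at 3 months, 850 to 1076 CPM. On the TPM scale these WT groups overlap.

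Hmox1, the inducible enzyme that degrades haem and a classical target of NRF2 (chromosome 8, 75093621 to 75100589, plus strand), varied most. It had 23.5, 32.1 and 24.6 CPM in Tet1KO libraries and 14, 26.2 and 12.2 CPM in WT libraries at 3 months. At 11 months it had 15.8, 28.8 and 18.9 CPM in Tet1KO libraries and 20.2, 36.9 and 25.9 CPM in WT libraries. WT replicate 2 at 3 months lay above 2 of the 3 Tet1KO libraries, and at 11 months the groups were interleaved, so the genotypes overlapped at both ages. The 12 libraries spanned 3.02-fold, and the within-group SD of log2 CPM, 0.44, was the largest among the members.

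The direction of the Hmox1 difference was opposite at the 2 ages, without passing the test. The group means were 26.7 ± 4.69 CPM in Tet1KO and 17.5 ± 7.62 CPM in WT at 3 months, and 21.2 ± 6.76 CPM in Tet1KO and 27.7 ± 8.48 CPM in WT at 11 months (SD, n = 3 each). The log2 fold change for Tet1KO against WT was 0.61 ± 0.33 at 3 months, with a 95% interval from −0.12 to 1.34, and −0.39 ± 0.33 at 11 months, with an interval from −1.11 to 0.34. The difference between the ages was −1.002 ± 0.471 (SE), with an interval from −2.03 to 0.03, an unadjusted p of 0.0555 and an adjusted p of 1 by edgeR. For 11 against 3 months, the log2 fold change was 0.66 ± 0.33 in WT (adjusted p = 0.774, edgeR) and −0.34 ± 0.33 in Tet1KO (adjusted p = 0.9999). Single libraries moved these values: leaving out WT replicate 2 gave −0.12 at 11 months and 1.03 at 3 months, and leaving out Tet1KO replicate 2 gave −0.67 at 11 months. At 11 months, where libraries of the same replicate number deviated together, Hmox1 was lower in Tet1KO in 3 of 3 same-number pairs. The share of all genes with 3 of 3 pairs in the same direction was not counted, so no conclusion is drawn from it. Without both 3-month libraries that stood apart the difference between the ages was −0.71, and over the libraries whose codes begin with AK it was −1.54.

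Hmox1 was highest, in each of the 4 groups, in the library with the lowest summed meiotic markers, and in 3 of the 4 groups its order was the inverse of that sum. This too was singled out after the values were seen: of the 110 pairs, 5 had the member highest where the sum was lowest in all 4 groups, and 2 had the inverse order in 3 groups. Its highest level, 36.9 CPM in WT replicate 2 at 11 months, was in the library with the lowest sum of leukocyte and macrophage markers, 99.7 CPM. The sums of the other 11 libraries began at 359 CPM. Among Tet1KO libraries at 11 months, Hmox1 was highest in replicate 2, at 28.8 CPM, where the leukocyte sum was also highest, at 1172 CPM. Of the 4 groups, 1 had Hmox1 in the order of the leukocyte sum and 1 in the inverse order. Leukocytes matter beside Hmox1 because macrophages that take up red cells are a known site of the enzyme. The 17 markers of the list, led by Cd74, were all above 0 in every library. Leukocyte sums were 359 to 728 CPM in Tet1KO and 448 to 794 CPM in WT at 3 months, and 570 to 1172 CPM in Tet1KO and 99.7 to 1177 CPM in WT at 11 months. Sums of Sertoli cell markers, 17 genes led by Cst9, were 389 to 433 CPM in Tet1KO and 420 to 908 CPM in WT at 3 months, and 373 to 429 CPM in Tet1KO and 416 to 593 CPM in WT at 11 months. Sums of peritubular myoid markers, 7 genes led by Myl9, were 79.2 to 391 CPM in Tet1KO and 104 to 366 CPM in WT at 3 months, and 28.0 to 64.3 CPM in Tet1KO and 70.8 to 247 CPM in WT at 11 months. Their median log2 fold change for Tet1KO against WT was 0.34 at 3 months and −1.97 at 11 months. At 11 months 5 of 7 were lower at an unadjusted p under 0.05 by edgeR, beside 1.65% of all genes in either direction. The adjusted test passed 0 of them. Medians at 3 and 11 months were −0.377 and 0.741 for the leukocyte list and −1.703 and −0.925 for the Sertoli list. At 3 months 5 of 15 tested Sertoli markers were lower at an unadjusted p under 0.05, beside 1.14% of all genes in either direction. The part of these lists in the Hmox1 levels was not tested.

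**Figure D4:**
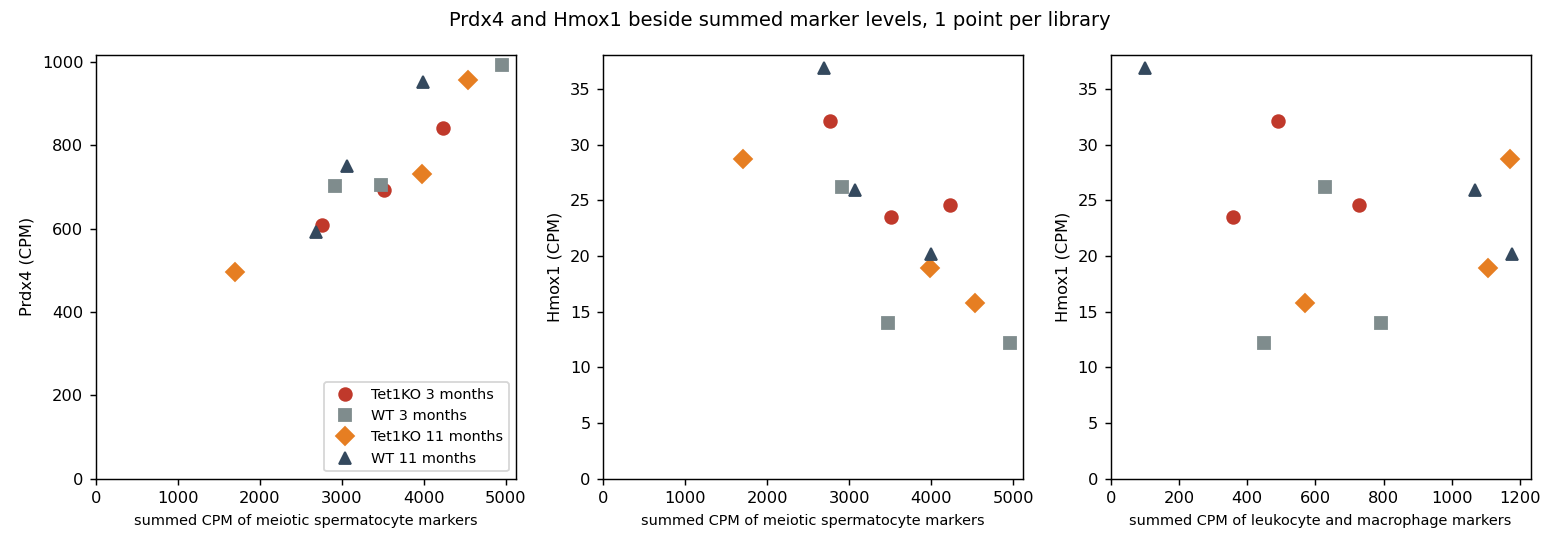
Prdx4 against the summed meiotic markers (left), and Hmox1 against the summed meiotic markers (middle) and the summed leukocyte and macrophage markers (right), all in CPM with 1 point per library and a symbol per group. Prdx4 is lowest at a meiotic sum of 1702 CPM and highest at 4957 CPM, and Hmox1 is highest where the leukocyte sum is 99.7 CPM. Of the 4 groups, 1 has Hmox1 in the order of the leukocyte sum and 1 in the inverse order.

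The genes whose levels over the 12 libraries were most like those of Hmox1 were Gm45902, Gm45808 and Ddx49. Likeness was the root mean square difference of centred log2 CPM over 12 libraries among 9998 genes, at 0.18, 0.19 and 0.20 for these genes. All 3 overlap another gene in position, Gm45902 with Hspa14 and Ddx49 with Homer3. Shared exon bases were not counted for these genes, so whether the overlap affects their counts was not tested.

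The wider antioxidant system was described with lists of related genes. Of 139 other genes in 12 lists of the pathway, 132 were tested, and edgeR called 0 of them in each of the 6 comparisons. The partners that feed the members were abundant. Txn1, the thioredoxin that Txnrd1 reduces, had 361 TPM, Gsr, which recycles glutathione, 109 TPM, and Ccs, which loads copper into Sod1, 71.6 TPM. The ferritin chains Fth1 and Ftl1, which store the iron that haem oxygenase frees, had 1906 and 1361 TPM. The selenoproteins outside the list were led by Selenok at 746 TPM and Selenoh at 637 TPM, and the glutathione transferases by Gstm5 at 531 TPM. Among the NRF2 regulators Rbx1 and Cul3, parts of the ligase that degrades NRF2, had 231 and 141 TPM. Nox1, of the NADPH oxidases that produce superoxide, had 16.8 TPM, an uncertain value since it shares 399 exon bases with Cstf2 on the other strand, which had 16126 counts beside 4346 for Nox1. Hmox2, Txnrd2, Prdx5, Gss, Ggt7, Eefsec, Ftl1 and Gstm5 likewise share exon bases with another gene.

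At an unadjusted p under 0.05, the pathway genes numbered 1 of 132 (0.758%) for Tet1KO against WT at 3 months and 2 of 132 (1.52%) at 11 months. The first was Cbr3, a carbonyl reductase and NRF2 target, at 1.37 ± 0.55 on the log2 scale. The others were Nox4 at 1.30 ± 0.57 and Ggt7 at −0.65 ± 0.28. Cbr3 had only 6, 5 and 4 counts in the WT libraries at 3 months. Without both 3-month libraries that stood apart, Cbr3 did not keep an unadjusted p under 0.05 by edgeR, while Nox4 and Ggt7 did. For 11 against 3 months, 9 of 132 (6.82%) were under 0.05 in WT, beside 5.67% of all genes. In Tet1KO 2 of 132 (1.52%) were, Mgst3 at −1.02 and Secisbp2 at 0.35. Without both 3-month libraries that stood apart Mgst3 was at −0.70 and Secisbp2 at 0.24, and neither kept an unadjusted p under 0.05 by edgeR. Taldo1, an enzyme of the pentose phosphate pathway, had 73.9, 107 and 95.4 CPM in WT libraries at 11 months and 56.8, 70.2 and 51.7 CPM in WT libraries at 3 months, a log2 fold change of 0.63 ± 0.16 (SE, adjusted p = 0.774, edgeR). Selenom was at 0.64 ± 0.19, Eefsec and Gss at 0.53 each, Pex2 at 0.47 and Prdx5 at 0.34 in the same comparison. Lower values were those of Gpx8 at −1.14, Msrb3 at −2.14 and Gpx6 at −3.48. Without WT replicate 1 at 3 months, which stood apart, Msrb3 was at −0.67 and Gpx6 at −1.79, and neither kept an unadjusted p under 0.05, nor did Gpx8 at −1.08, Gss, Eefsec or Prdx5. Gpx6 ranged from 0.292 to 19.5 TPM over the 12 libraries. Its highest counts, 204 in WT replicate 1 and 137 in Tet1KO replicate 2 at 3 months, were in the libraries that stood apart.

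Listed by group, the 18 NRF2 targets that are not among the 10 members had a median log2 fold change of −0.001 for Tet1KO against WT at 3 months and −0.02 at 11 months, beside −0.02 and 0.02 over all genes tested. For 11 against 3 months the median was 0.01 in WT and 0.09 in Tet1KO, beside −0.06 and −0.01 over all genes. The 16 glutathione transferases had medians of −0.32 in WT and −0.36 in Tet1KO for 11 against 3 months, and none passed the adjusted test. In WT 13 of 16 were below 0 (81.2%, beside 56.4% of all genes), and in Tet1KO 14 of 16 (87.5%, beside 52% of all genes). Without both 3-month libraries that stood apart the median in WT was −0.01, with 8 of 16 below 0 (50%, beside 50.4% of all genes). In Tet1KO it was −0.08, with 12 of 16 below 0 (75%, beside 43.7% of all genes). Mgst3, of this list, had its highest levels in those libraries, 16.9 CPM in Tet1KO replicate 2 and 22.7 CPM in WT replicate 1. The 16 selenoproteins tested outside the list of 10 had medians for 11 against 3 months of 0.01 in WT and 0.09 in Tet1KO.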

How the data were processed

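The deposited table holds raw read counts per gene. Per the file headers the authors counted read pairs with featureCounts 1.6.2 against GENCODE mouse release 17, with a mapping quality of at least 30, counting reads that overlap several genes or map to several places, and with no strand setting. Per the submitters' processing notes the build is mm10 and HISAT2 and SAMtools were used, with versions not given in the sources used here. Symbols were matched for 53620 of 53715 gene IDs.

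Counts were fitted with edgeR 4.0.16 (limma 3.58.1, R 4.3.3) by its quasi-likelihood F test, two-sided, after filterByExpr and TMM scaling, with 12 libraries in 1 model of 4 group means. 19815 genes, all 10 members among them, passed the filter. The fit was checked on simulated data with known changes. CPM uses TMM-scaled library sizes and TPM the deposited exon lengths. No 2 libraries of a group agreed within counting noise (lowest chi-square per degree of freedom 9.86), so none was treated as a repeat deposit; this does not show that they came from different mice.

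Same-number deviations of Tet1KO and WT libraries correlated across 9998 genes at 0.46, 0.36 and 0.52 at 11 months, which pairs them. At 3 months they correlated at −0.66, −0.15 and 0.53, which does not pair them by number. Across numbers at 3 months, Tet1KO replicate 2 and WT replicate 1 correlated at 0.752. Tet1KO replicate 1 correlated with WT replicates 2 and 3 at 0.255 and 0.522. No fit paired libraries across numbers, so a pairing of that kind at 3 months was not tested. The members, gene lists and tests were chosen with earlier results of these data known. Named genes were all 10 members, the 3 highest tested genes of each pathway list by TPM, pathway genes with an unadjusted p under 0.05 in a comparison within an age or genotype, the highest gene of each marker list, the 3 genes closest in pattern to the most variable member, and member pseudogenes. Promoter sequences are from RefSeq (GRCm38.p6). Protein sequences were not used here. Alternatives were other normalizations and filters, DESeq2 1.42.0, limma-voom, a replicate block, library code prefix, and leaving out libraries.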

Additional observations from a re-analysis of the deposited data

How the results depend on the processing

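No member passed the adjusted threshold in any of the 26 settings tried, and 0 of 1426 member values under alternatives did. In 40 of 60 pairs of member and comparison the sign of the log2 fold change turned under at least 1 alternative. Leaving out 1 library at a time, edgeR called 0 genes of all in every comparison, while genes at an unadjusted p under 0.05 numbered 159 to 512 for Tet1KO against WT at 3 months, 312 to 714 at 11 months, 243 to 434 averaged, 446 to 1607 for age in WT, 292 to 771 for age in Tet1KO and 233 to 645 for the difference of the Tet1KO effect. DESeq2 called 2 genes for Tet1KO against WT at 3 months, 3 at 11 months, 2 averaged and 5 for age in Tet1KO, none a member, against 0 by edgeR, and the cause was not tested. With the replicate number as a block, edgeR called 0 genes in all 6 comparisons. Same-number libraries deviated together only at 11 months, so the block matches a pairing only for Tet1KO against WT at that age. There genes at an unadjusted p under 0.05 by edgeR numbered 627 with the block and 326 (1.65% of all tested) without it. With the block they held 1 of 10 members, Hmox1. The share of all genes tested in the block fit is not given here, so no conclusion is drawn from that member. The Hmox1 difference of the Tet1KO effect was −1.07 with the block, which used the same-number pairs at 3 months too. It lay between −1.54 and −0.71 over 23 alternatives, 10 of them at an unadjusted p under 0.05. Without WT replicate 2 at 3 months its Tet1KO fold change at 3 months was 1.03. The count of neighbours in the order of TPM that did not overlap was 3 rather than 5 with the length of the longest protein-coding transcript. That alternative, the Gpx4-ps2 sum and the fits of pathway genes and lists without the libraries that stood apart were chosen after seeing the data. The lowest member value was 10.1 CPM, Txnrd1 in Tet1KO replicate 1 at 11 months, above the limit of 0.360 CPM that 3 counts set.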
